A study of Mus musculus with 24 samples.

Results

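The miR-148 and miR-152 family consists of the microRNAs (miRNAs) that carry 1 common seed, the short stretch near the 5′ end that pairs with target transcripts. Its members in this small RNA sequencing study were miR-148a-3p (MIMAT0000516), miR-148b-3p (MIMAT0000580) and miR-152-3p (MIMAT0000162). They were taken by these identifiers, a rule that uses no measured value, although the family was picked with earlier results of these data known. They make up 3 of the 2045 loci counted. All 3 passed the filter on low counts, as did 654 loci in all. The tissue was subcutaneous fat of female mice, and the question was how training affects its miRNAs. The 4 groups were kinase dead trained, kinase dead sedentary, wild type trained and wild type sedentary, with 6 libraries each and 24 in all. Trained mice ran on a motorised treadmill at 16 m/min for 1 hour, 5 days a week, over 6.5 weeks, and could also use a running wheel at any time. All mice ate chow. The sources used here do not give the inactive kinase, the cells in which it is inactive, the age of the mice or whether sedentary mice had a wheel. They also do not say whether each library is from its own animal, so the p-values reflect how much libraries of a group vary.

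A miRNA is cut from a hairpin precursor, loaded into an Argonaute protein and guided by its seed to matching sites, mostly in the 3′ untranslated parts of messenger RNAs, which it represses. Members of a family with 1 seed can share many targets. miR-148a promotes adipocyte differentiation in human and mouse cells, in part by repressing Wnt1. Members of the family repress DNA methyltransferases, shown for DNMT1 and DNMT3B in human cells. In mouse and human liver cells miR-148a lowers the LDL receptor and the cholesterol exporter ABCA1. miR-148a is also among the most abundant miRNAs of milk and acts in the differentiation of mouse B cells into plasma cells.

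The mature sequences show what the members share and where they differ; they are those of RefSeq on GRCm38, 5′ to 3′, with the seed (bases 2 to 8) in capitals.
miR-148a-3p: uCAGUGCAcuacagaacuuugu
miR-148b-3p: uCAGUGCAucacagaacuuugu
miR-152-3p: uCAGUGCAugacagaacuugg
Counted from the 5′ end, miR-148b-3p differed from miR-148a-3p by C9U and U10C. miR-152-3p differed from miR-148a-3p by C9U, U10G and U20G and was 21 bases long, against 22 for the others. From miR-148b-3p to miR-152-3p the changes were C10G and U20G. The seed CAGUGCA was carried by 3 of the 1738 mature mouse miRNAs in the RefSeq table, so no further miRNA belonged to the family. With only bases 2 to 7 required, miR-1960 was the fourth.

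The hairpins show that each member is the 3p product of its own precursor; capitals mark that product.
mir-148a hairpin: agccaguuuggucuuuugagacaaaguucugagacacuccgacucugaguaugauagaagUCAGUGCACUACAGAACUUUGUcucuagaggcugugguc
mir-148b hairpin: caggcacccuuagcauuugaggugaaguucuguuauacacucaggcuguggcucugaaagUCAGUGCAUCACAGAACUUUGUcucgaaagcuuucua
mir-152 hairpin: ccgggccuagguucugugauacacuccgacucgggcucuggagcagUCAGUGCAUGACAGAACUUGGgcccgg
On GRCm38 (mm10), miR-148a-3p lies at chr6:51269829-51269850 on the minus strand, in a 99-base hairpin that overlaps no other GENCODE gene. The nearest protein-coding gene, Nfe2l3, is 162760 bases away. miR-148b-3p lies at chr15:103285185-103285206 on the plus strand, in a 97-base hairpin within an intron of Copz1. miR-152-3p lies at chr11:96850439-96850459 on the plus strand, in a 73-base hairpin within an intron of Copz2. Copz1 and Copz2 encode the zeta subunits of the COPI coat, which carries vesicles within the Golgi, so these intronic members sit in paralogous host genes.

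The deposited values were raw read counts, with library totals of 1.60 to 23.6 M reads. Levels are given in CPM, which divides each count by the size of its library, scaled here with TMM factors. At these depths the members were counted deeply: miR-148a-3p had 58248 to 804299 reads in a library, miR-152-3p 8300 to 136640 and miR-148b-3p 2373 to 35734. Before any comparison, 7 libraries stood apart by their lymphocyte miRNAs. Their level of miR-150-5p, a miRNA of mature B and T cells, was 3460.0 to 6954 CPM, against 551 to 1005 CPM in the other 17. The summed level of 6 features under 5 lymphocyte marker names, miR-150-5p among them, was 15130.3 to 24918 CPM in the 7 libraries. In the 17 it was 3472 to 5438 CPM. The 7 comprised 2 kinase dead trained, 2 kinase dead sedentary, 2 wild type trained and 1 wild type sedentary library. A small list used to check the tissue (miR-143-3p, miR-378a-3p, miR-193b-3p and miR-365-3p, none exclusive to fat) summed to 102561 to 137246 CPM in the 7 libraries, against 130339.9 to 197819 CPM in the 17. miR-143-3p alone averaged 135497 CPM over all libraries, so this sum rests mainly on it. No marker feature of any list was at 0 reads throughout. In bulk tissue, fewer cells of a type and less RNA per cell cannot be told apart.

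miR-148a-3p, the member tied to adipocyte differentiation, dominated the family's reads and was among the miRNAs with the most reads in this fat. Whether reads of different miRNAs stand equally for molecules was not tested. miR-148a-3p averaged 33466 ± 5678 CPM (SD, n = 24 libraries) and ranked 5 among all 2045 loci. miR-152-3p followed at 5909.6 ± 1246 CPM, rank 33, and miR-148b-3p at 1569.7 ± 247 CPM, rank 72. The order miR-148a-3p, miR-152-3p, miR-148b-3p held in 24 of 24 libraries, with no overlap between members. The mean CPM of miR-148a-3p was 5.66 times that of miR-152-3p and 21.3 times that of miR-148b-3p. That of miR-152-3p was 3.76 times that of miR-148b-3p. Divided by mature length, these ratios were 5.41, 21.3 and 3.94. In single libraries the ratio of CPM ran from 4.29 to 8.56 for miR-148a-3p over miR-152-3p. It ran from 16.2 to 27.3 for miR-148a-3p over miR-148b-3p and from 1.94 to 6.10 for miR-152-3p over miR-148b-3p. Together the 3 members took 4.06 ± 0.41% of all reads (SD, n = 24), with 3.29% in the lowest library and 4.69% in the highest.

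The members varied about as much between libraries as other abundant miRNAs. The coefficient of variation over the 24 libraries was 16.97% for miR-148a-3p, 15.7% for miR-148b-3p and 21.1% for miR-152-3p. The median was 18.9% over the 93 features with a mean of at least 1000 CPM. Of those 93, 38.7% varied less than miR-148a-3p, 25.8% less than miR-148b-3p and 64.5% less than miR-152-3p.

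By group, miR-148a-3p was lowest, median and highest at 22893, 32433 and 42485 CPM in kinase dead trained libraries. The same 3 values were 23889, 35288 and 41944 CPM in kinase dead sedentary, 25942, 32762 and 37179 CPM in wild type trained and 31157, 33962 and 44097 CPM in wild type sedentary libraries. The group means were 32944 ± 6357, 33915 ± 7830.1, 32114 ± 4293 and 34891 ± 4792 CPM in that order of groups (SD, n = 6 each). All 4 ranges overlapped, and the distance between any group means was smaller than the SD of any group. The highest library was wild type sedentary replicate 3, while the lowest was kinase dead trained replicate 3, which belongs to the 7 rich in lymphocyte miRNAs.

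miR-152-3p, from the Copz2 intron, was lowest, median and highest at 4217, 5173 and 7666 CPM in kinase dead trained libraries. It was 3344, 6490.3 and 8503 CPM in kinase dead sedentary, 5031, 5676 and 6950.3 CPM in wild type trained and 3925, 6376 and 7039 CPM in wild type sedentary libraries. The means were 5631 ± 1267, 6193 ± 1782, 5870.4 ± 781 and 5943 ± 1247 CPM for the same groups (SD, n = 6 each). The ranges overlapped again, and the kinase dead sedentary group held both the lowest and the highest of the 24 values.

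miR-148b-3p, from the Copz1 intron, was lowest, median and highest at 1260.2, 1592 and 1985 CPM in kinase dead trained libraries. It was 1279, 1473 and 1855 CPM in kinase dead sedentary, 1176, 1568 and 1777 CPM in wild type trained and 1142, 1612 and 2027 CPM in wild type sedentary libraries. The means were 1614 ± 269, 1536 ± 216, 1529.6 ± 202 and 1600.02 ± 338 CPM (SD, n = 6 each). No group stood outside the others for this member either.

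**Figure D1:**
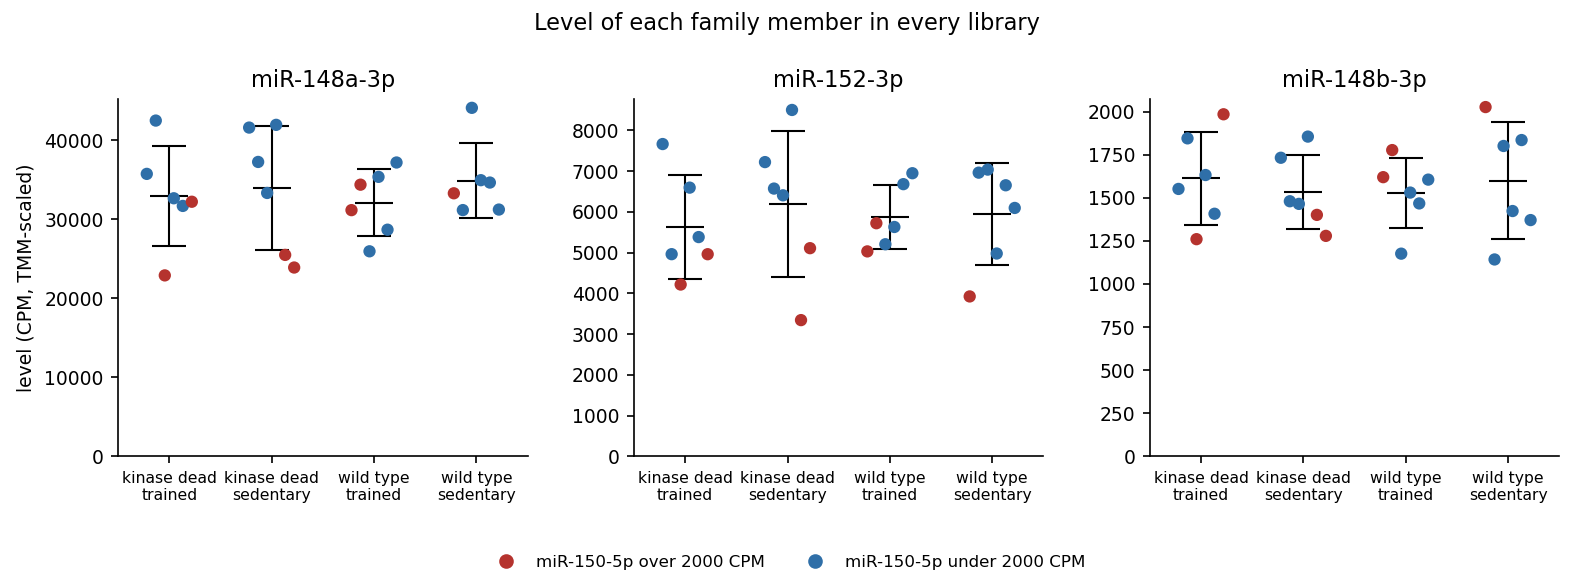
Level in CPM (linear axis from 0, scaled with TMM factors) of each member in the 24 libraries, by group; each point is 1 library, long bars show the mean and whiskers the SD (n = 6). Red points are the 7 libraries with miR-150-5p over 2000 CPM. The 4 groups overlap for every member, and the lowest miR-152-3p values, down to 3344 CPM, belong to red points.

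Training did not change any member by a detectable amount in either genotype. In kinase dead mice, trained against sedentary, the log2 fold change was −0.04 for miR-148a-3p (95% interval −0.35 to 0.26), −0.14 for miR-152-3p (−0.52 to 0.25) and 0.07 for miR-148b-3p (−0.23 to 0.37). In wild type mice it was −0.12 for miR-148a-3p (−0.43 to 0.19), −0.02 for miR-152-3p (−0.40 to 0.37) and −0.06 for miR-148b-3p (−0.37 to 0.24). The standard errors were 0.15 for miR-148a-3p and miR-148b-3p and 0.19 for miR-152-3p in each genotype. The adjusted p was 0.997 for each member in kinase dead mice and 0.992, 0.997 and 0.994 for miR-148a-3p, miR-152-3p and miR-148b-3p in wild type mice (edgeR quasi-likelihood test, Benjamini-Hochberg over 654 features). In linear terms the intervals for training in wild type ran from 0.744 to 1.14-fold for miR-148a-3p, from 0.755 to 1.29-fold for miR-152-3p and from 0.775 to 1.18-fold for miR-148b-3p.

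Averaged over the genotypes, the log2 change with training was −0.08 ± 0.10 for miR-148a-3p, −0.08 ± 0.13 for miR-152-3p and 0.00 ± 0.10 for miR-148b-3p (± SE, 12 trained and 12 sedentary libraries). The intervals were −0.30 to 0.14, −0.35 to 0.20 and −0.21 to 0.22, and the adjusted p from edgeR was 0.994, 0.994 and 0.995. The test of the difference itself, the training effect in kinase dead minus that in wild type, gave a log2 difference of 0.08 ± 0.21 for miR-148a-3p, −0.12 ± 0.26 for miR-152-3p and 0.14 ± 0.21 for miR-148b-3p (± SE). The intervals were −0.36 to 0.51, −0.67 to 0.43 and −0.29 to 0.56, and the adjusted p from edgeR was 0.9996 for each, so the interaction was the least precisely known comparison for every member.

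Genotype made no detectable difference to the members. In trained mice, kinase dead minus wild type was 0.04 for miR-148a-3p (interval −0.27 to 0.34), −0.06 for miR-152-3p (−0.45 to 0.33) and 0.08 for miR-148b-3p (−0.22 to 0.38) on the log2 scale. In sedentary mice it was −0.04 (−0.35 to 0.27), 0.06 (−0.33 to 0.45) and −0.06 (−0.36 to 0.24) for the same members. The adjusted p from edgeR was 0.999 for each member in trained and 0.996 for each in sedentary mice. These comparisons share groups of libraries with the training comparisons, so they are not separate evidence.

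Few features differed in the table as a whole. With edgeR's adjusted p, 0% of the 654 features (0 features) were called in each of the 6 comparisons, and DESeq2 also called 0. At an unadjusted p under 0.05, edgeR had 17 features (2.6%) for training in kinase dead, 38 (5.81%) for training in wild type and 37 (5.66%) for training averaged over genotypes. It had 13 (1.99%) for the interaction, 6 (0.917%) for genotype in trained and 5 (0.765%) for genotype in sedentary mice. DESeq2 had 20, 50, 47, 20, 15 and 19 in the same order of comparisons. It was run without the filter on low counts, on every locus with any read. Its counts are thus out of a larger set than the 654 and do not compare directly with those of edgeR. None of the 3 members was among edgeR's in any comparison, the lowest unadjusted p of a member being 0.428. Several of the members' differences changed sign when the scaling changed or when 1 library was left out, and none passed the adjusted threshold in any such fit.

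**Figure D2:**
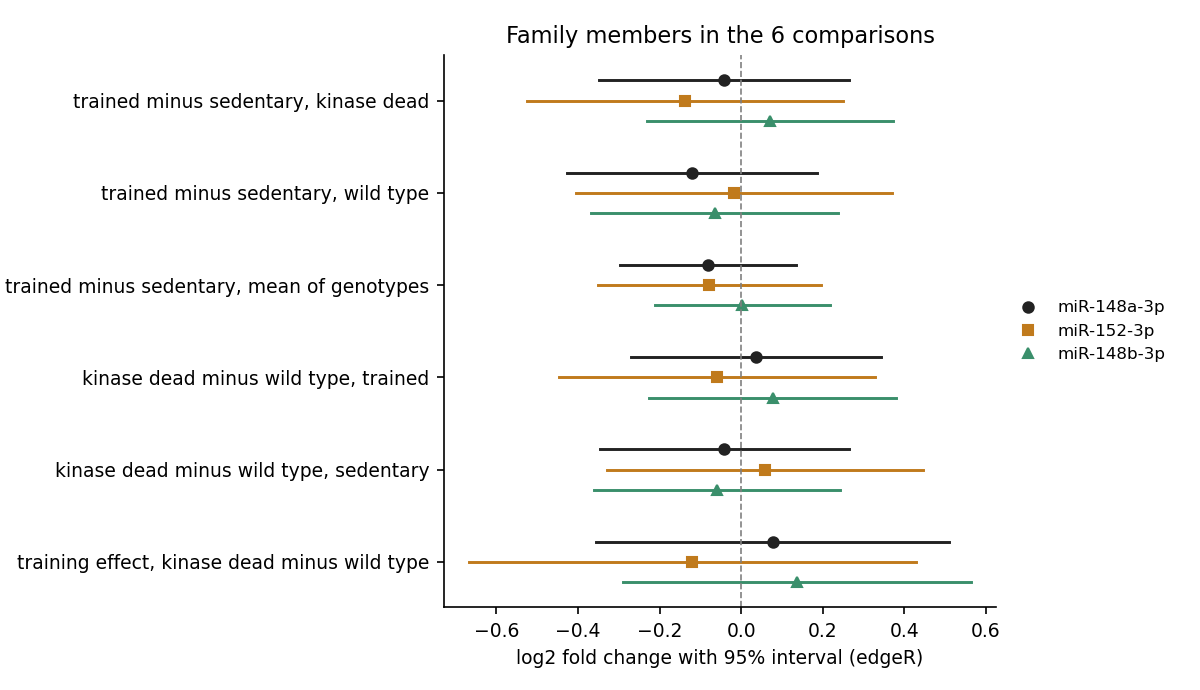
Log2 fold change of each member in the 6 comparisons with its 95% interval (edgeR, 24 libraries in 1 fit); circles are miR-148a-3p, squares miR-152-3p and triangles miR-148b-3p, and the dashed line marks no change. All 18 intervals cross 0, and the widest, for miR-152-3p in the interaction, runs from −0.67 to 0.43.

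Without the 7 lymphocyte-rich libraries, the log2 change with training in kinase dead was −0.12 for miR-148a-3p, −0.22 for miR-152-3p and −0.03 for miR-148b-3p. In wild type it was −0.13, −0.04 and −0.05 for the same members. For genotype, kinase dead minus wild type, it was 0.16, 0.01 and 0.15 in trained mice and 0.15, 0.20 and 0.13 in sedentary mice. The lowest adjusted p of a member over all 6 comparisons was then 0.58 (edgeR), for miR-148a-3p with training averaged over genotypes. No feature of the table was called without these libraries.

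The shares of the members within the family were close in the 4 groups. miR-148a-3p took 81.8 ± 2.5% of the family's reads in kinase dead trained, 81.5 ± 1.9% in kinase dead sedentary, 81.2 ± 1.9% in wild type trained and 82.2 ± 2.3% in wild type sedentary libraries (SD, n = 6 each). The share of miR-152-3p was 14.1 ± 2.5%, 14.8 ± 2.1%, 14.9 ± 1.9% and 14.04 ± 2.8% in the same groups. That of miR-148b-3p was 4.06 ± 0.60%, 3.78 ± 0.53%, 3.88 ± 0.34% and 3.79 ± 0.80%. These shares need no scaling between libraries, since each is taken within 1 library, and for each member the group means differed by less than the largest SD.

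Ratios within a library were compared with 2-sided exact permutation tests over 924 splits of 6 against 6 libraries, where the smallest possible p is 0.00216. The log2 ratio of miR-148b-3p over miR-148a-3p differed by 0.10 between kinase dead trained and sedentary libraries (exact permutation p = 0.413). In wild type, trained minus sedentary, it differed by 0.07 (exact permutation p = 0.556). Between kinase dead and wild type it differed by 0.05 in trained mice (exact permutation p = 0.641) and 0.02 in sedentary mice (exact permutation p = 0.855). The group ranges of this ratio overlapped in all 4 comparisons, as they did for the next.

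For miR-152-3p over miR-148a-3p, the log2 ratio differed by −0.08 between kinase dead trained and sedentary libraries (exact permutation p = 0.643) and by 0.12 in wild type (exact permutation p = 0.468). Between kinase dead and wild type it differed by −0.10 in trained mice (exact permutation p = 0.541) and 0.10 in sedentary mice (exact permutation p = 0.587). Over the 8 tests the adjusted p from the exact permutations was 0.735 for 7 of them and 0.855 for miR-148b-3p over miR-148a-3p in sedentary mice. Neither ratio was thus shown to move with training or genotype.

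The smallest share of the family, that of miR-148b-3p, was mostly higher in the libraries rich in lymphocyte miRNAs, while the other shares overlapped almost fully. The share of miR-148b-3p was lowest, median and highest at 4.23%, 4.44% and 5.17% in the 7 lymphocyte-rich libraries, against 2.91%, 3.55% and 4.26% in the other 17. Only 1 of the 17, wild type sedentary replicate 5, reached the lowest of the 7. How many other miRNAs or ratios set the 7 apart as far was not counted, so this is not shown to be particular to miR-148b-3p. The 7 libraries came from all 4 groups, and they were the highest miR-148b-3p shares within each of them. The ratio of miR-148b-3p to miR-148a-3p was 0.0517, 0.0550 and 0.0616 in the 7 libraries, against 0.0367, 0.0434 and 0.0530 in the 17, with the same single overlap. The share of miR-148a-3p was 78.9%, 82.3% and 84.8% in the 7, against 77.9%, 80.9% and 86.2% in the 17. That of miR-152-3p was 10.004%, 13.3% and 16.9% in the 7, against 10.07%, 15.4% and 18.1% in the 17.

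**Figure D3:**
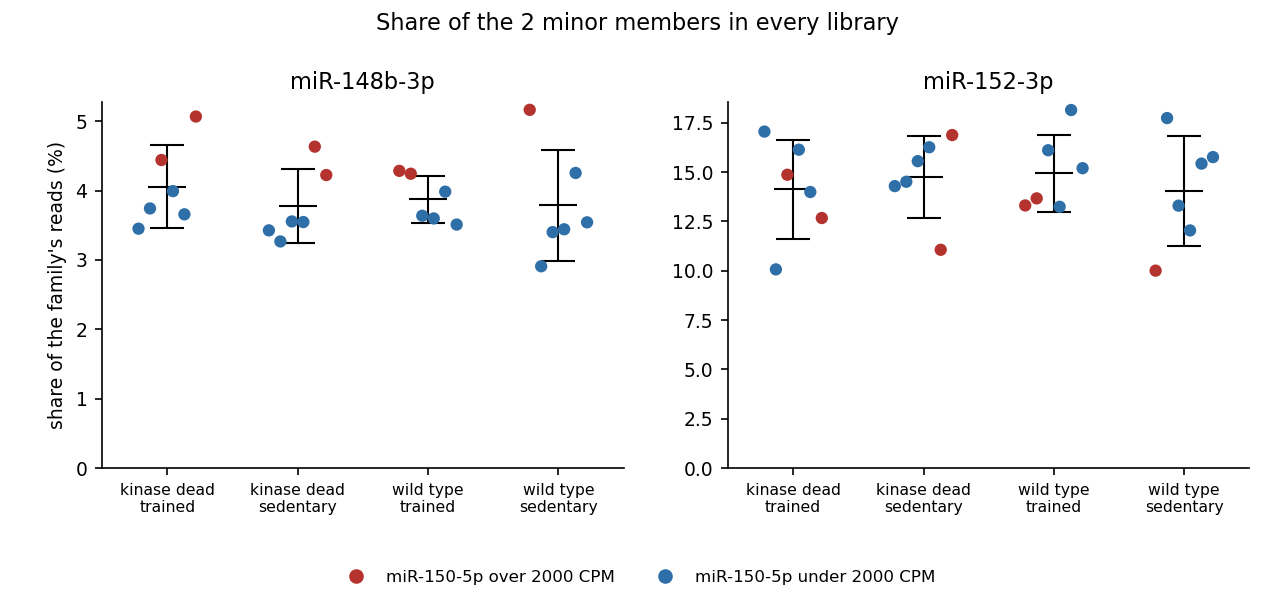
Share of miR-148b-3p (left) and miR-152-3p (right) in the summed reads of the 3 members, in percent (linear axes from 0), in the 24 libraries by group; each point is 1 library, long bars are means and whiskers SDs (n = 6). Red points, with miR-150-5p over 2000 CPM, lie at 4.23% or more for miR-148b-3p, while for miR-152-3p they spread up to 16.9%.

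The 3 levels behind these shares did not move alike. miR-152-3p was at 3344, 4962 and 5722 CPM (lowest, median and highest) in the 7 libraries, against 4963, 6596 and 8503 CPM in the 17. Of the 17 libraries, 5 were at or below the highest of the 7, and 3 of the 7 were at or above the lowest of the 17. miR-148a-3p was at 22893, 31152 and 34373 CPM in the 7, against 25942, 34941 and 44097 CPM in the 17. miR-148b-3p was at 1260.2, 1620.0 and 2027 CPM in the 7, against 1142, 1531 and 1855 CPM in the 17. The medians of miR-148a-3p and miR-152-3p were thus lower in the lymphocyte-rich libraries and that of miR-148b-3p was higher, with overlapping ranges for each. These values describe the libraries. They were not tested, because the split was made on the data, and the part that lymphocytes play in them was not tested.

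The summed levels of all other marker lists overlapped between the 7 and the 17 libraries, but their medians differed. The medians in the 7 against the 17 were 13199 against 18869 CPM for epithelial and 41459 against 55330 CPM for endothelial markers. They were 866 against 2073 CPM for striated muscle markers and 124144 against 167667 CPM for the list used to check the tissue. Red cell and nerve medians were also lower in the 7, while myeloid and liver medians were higher. Striated muscle markers summed to 471 to 1157 CPM in the 7 libraries, against 711 to 8281 CPM in the 17. Epithelial markers, which can come from skin or mammary gland near this depot, summed to 12353 to 15193 CPM in the 7, against 12957 to 23288 CPM in the 17. Endothelial markers summed to 32180.1 to 60286 CPM in the 7, against 39592 to 74943 CPM in the 17, and myeloid markers to 199 to 302 CPM in the 7, against 195 to 318 CPM in the 17. Red cell markers summed to 1321 to 9289 CPM in the 7, against 1259 to 5060.1 CPM in the 17. Liver markers summed to 592 to 1195 CPM in the 7, against 472 to 934 CPM in the 17, and nerve markers to 108 to 296 CPM in the 7, against 136 to 422 CPM in the 17. Only the lymphocyte sum separated the 7 from the 17 without overlap, and no list was tested for a part in the family's levels.

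Within each set of libraries, miR-148a-3p and miR-148b-3p varied together, while miR-152-3p was not shown to follow either. Because the libraries form separate clusters, no correlation was taken over all 24. In the 17 libraries, miR-148a-3p and miR-148b-3p had a Pearson r of 0.80 (permutation p = 0.00016, adjusted p = 0.00048 over 3 pairs) and a Spearman rho of 0.78 (permutation p = 0.0003, adjusted p = 0.0009), on log2 CPM. Without the 2 libraries farthest from the median of miR-148a-3p, r was 0.71. In the 7 lymphocyte-rich libraries, r was 0.94 (exact permutation p = 0.00635, adjusted p = 0.019) and rho 0.89 (exact permutation p = 0.0123, adjusted p = 0.0369). Without the 2 farthest there, r was 0.84.

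For miR-152-3p the values were lower. With miR-148a-3p, r was 0.33 in the 17 libraries (permutation p = 0.196, adjusted p = 0.196; rho 0.31, permutation p = 0.233, adjusted p = 0.233) and 0.14 without the 2 farthest. In the 7 libraries r was 0.37 (exact permutation p = 0.416, adjusted p = 0.624; rho 0.25, exact permutation p = 0.595, adjusted p = 0.892) and 0.76 without the 2 farthest. With miR-148b-3p, r was 0.33 in the 17 libraries (permutation p = 0.195, adjusted p = 0.196; rho 0.39, permutation p = 0.12, adjusted p = 0.18) and 0.38 without the 2 farthest. In the 7 libraries r was 0.19 (exact permutation p = 0.672, adjusted p = 0.672; rho −0.04, exact permutation p = 0.963, adjusted p = 0.963) and 0.41 without the 2 farthest. The difference between these correlations was itself not tested.

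With group means removed, r between miR-148a-3p and miR-148b-3p was 0.79 in the 17 libraries. The 7 libraries hold at most 2 of a group, too few for that comparison. With CPM from total counts, without TMM factors, r was 0.68 in the 17 (permutation, adjusted p = 0.013) and 0.89 in the 7 (exact permutation, adjusted p = 0.0321). The mature sequences of the pair, printed above, are alike except at positions 9 and 10. The sources used here do not say how reads that match both loci were assigned.

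**Figure D4:**
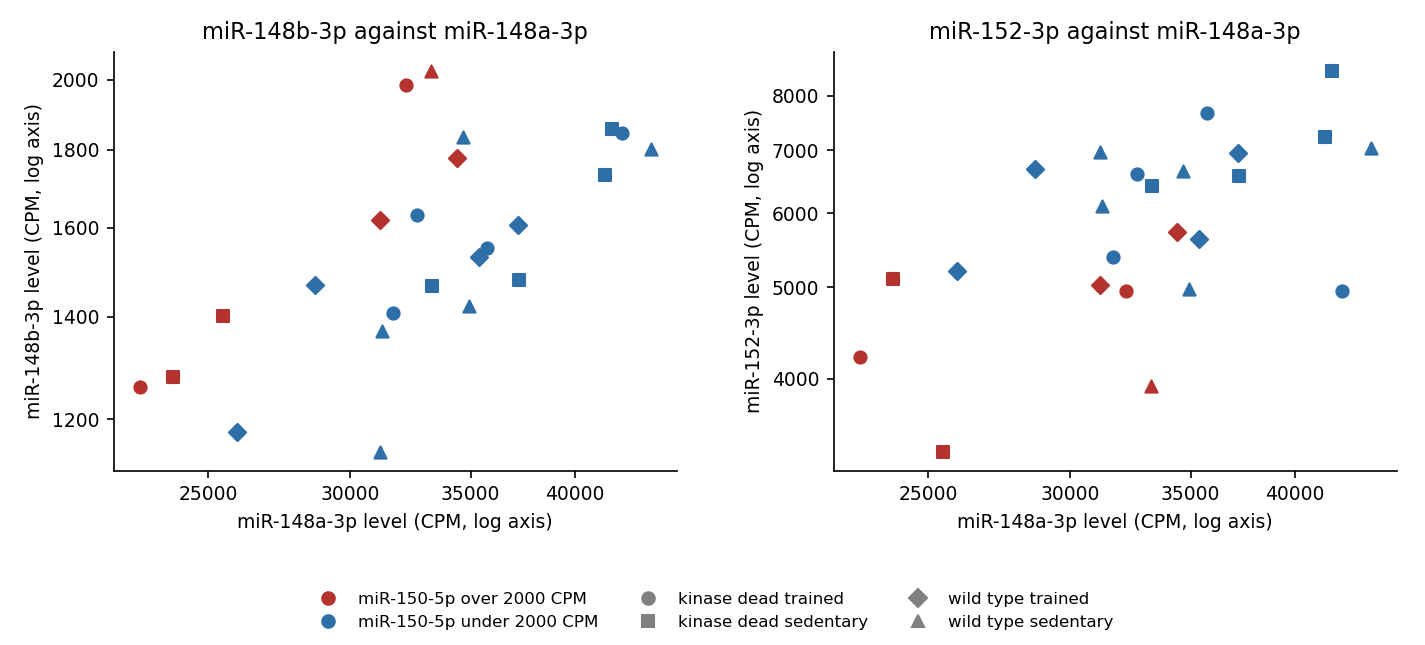
Level of miR-148b-3p (left) and miR-152-3p (right) against that of miR-148a-3p in the 24 libraries, in CPM on log axes; each symbol is 1 library, its shape gives the group and red marks miR-150-5p over 2000 CPM. On the left the points of each colour rise (r = 0.80 in the 17 blue and 0.94 in the 7 red libraries). In the ratio of the pair, 1 blue library reached the lowest red one. On the right the points scatter (r = 0.33 and 0.37).

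The passenger strands, cut from the other arm of each hairpin, were scarce. Their sequences are shown because their seeds (capitals, bases 2 to 8) set miR-152-5p apart from the others.
miR-148a-5p: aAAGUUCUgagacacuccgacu
miR-148b-5p: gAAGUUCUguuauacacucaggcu
miR-152-5p: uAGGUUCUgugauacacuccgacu
The seed AAGUUCU was common to miR-148a-5p and miR-148b-5p, while that of miR-152-5p was AGGUUCU. Mean levels over the 24 libraries were 100.1 ± 21.4 CPM for miR-148a-5p, 76.6 ± 16.1 CPM for miR-152-5p and 25.9 ± 4.3 CPM for miR-148b-5p (SD). The 3p product thus made up 99.59% to 99.78% of both arms for mir-148a, 97.88% to 99.06% for mir-152 and 97.84% to 99.02% for mir-148b. The share of the 3p product stayed within these bounds in all 4 groups, so the dominant arm was the same in every library.

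The close relation of miR-148a-3p and miR-148b-3p was not shown for their 5p arms. In the 17 libraries miR-148a-5p and miR-148b-5p had r = 0.17 (permutation p = 0.504, adjusted p = 0.604) and rho = 0.15 (permutation p = 0.576, adjusted p = 0.576), and −0.19 without the 2 farthest. In the 7 libraries r was 0.28 (exact permutation p = 0.548, adjusted p = 0.658), rho 0.14 (exact permutation p = 0.783, adjusted p = 0.84), and −0.40 without the 2 farthest. The 5p arms rest on few reads, as low as 43 for miR-148b-5p in 1 library. The highest relation among them was that of miR-148a-5p and miR-152-5p, with r = 0.59 in the 17 libraries (permutation p = 0.0117, adjusted p = 0.07 over 6 relations), rho = 0.61 (permutation p = 0.011, adjusted p = 0.0659) and 0.77 without the 2 farthest. In the 7 libraries it was r = 0.80 (exact permutation p = 0.0175, adjusted p = 0.105), rho = 0.75 (exact permutation p = 0.0663, adjusted p = 0.329) and 0.66 without the 2 farthest. None of these relations, nor those between the arms of 1 hairpin, passed 0.05 after adjustment.

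Among 380 features with a mean of at least 10 CPM, the patterns most like each member were ranked by Pearson r over the 17 libraries, as a description. For miR-148a-3p the first was miR-148b-3p (r = 0.80). It was followed by miR-143-3p (0.78), a miRNA of smooth muscle that also promotes adipocyte differentiation, miR-30a-3p (0.76) and miR-150-3p (0.67), the other arm of the lymphocyte miRNA. miR-152-3p ranked 58. In the 7 libraries, miR-143-3p had r = 0.91 with miR-148a-3p, miR-30a-3p 0.48 and miR-150-3p 0.02, so the last pattern was not seen there.

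For miR-148b-3p the first was miR-148a-3p, then miR-100-5p (r = 0.72 in the 17 and 0.72 in the 7 libraries), miR-1843b-5p (0.70 and 0.74) and let-7a-2-5p (0.70 and 0.32). miR-152-3p ranked 54. For miR-152-3p the first 4 were let-7j (0.87 and 0.81), miR-101b-3p (0.82 and 0.85), miR-708-3p (0.82 and 0.82) and miR-21a-5p (0.81 and 0.85). miR-148a-3p ranked 83 and miR-148b-3p 84. The first 4 for miR-152-3p were thus other ones than those for its seed partners, by this measure. Beyond each other, miR-148a-3p and miR-148b-3p also had none of their first 4 in common, so this does not set miR-152-3p apart. All these points share the libraries' depth and scaling.

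Other miRNAs with functions like those of the family were read from 3 lists. In the first, 19 miRNAs known to promote adipogenesis, as miR-148a does, 22 features were tested and 0 rose or fell with training or genotype (edgeR adjusted p). Their median log2 change with training was 0.05 in kinase dead and −0.01 in wild type mice, beside −0.02 and −0.01 over all 654 features. In wild type mice 3 of the 22 had an unadjusted p under 0.05, beside 5.81% of all features: miR-378a-3p, from the Ppargc1b gene, at 0.36 ± 0.14, miR-146b-5p at −0.62 ± 0.22 and miR-335-5p, from the imprinted Mest gene, at −0.76 ± 0.37 (log2 change ± SE). In kinase dead mice 0 of the 22 had one, beside 2.6% of all. miR-143-3p changed by −0.04 ± 0.16 in kinase dead and by −0.18 ± 0.16 in wild type mice (± SE), and was not called in either.

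The second list held 9 miRNAs known to repress DNA methyltransferases, as the family does, among them the miR-29 family, miR-101 and miR-143. Of its 10 features, 0 rose or fell in any comparison. With training the median log2 change was −0.15 in kinase dead mice, where 9 of 10 features were below 0, and −0.17 in wild type mice, where 6 of 10 were, beside −0.02 and −0.01 over all 654 features. miR-29b-3p counts there with 2 loci of 1 mature sequence, at −0.38 and −0.37 in kinase dead mice. The other miR-29 members and the miR-101 members are also related among themselves, so the 10 features are not separate members. The share of all 654 features below 0 is not given here. miR-29a-3p was at −0.03 ± 0.26 in kinase dead and −0.17 ± 0.26 in wild type mice, and miR-101a-3p at −0.20 ± 0.17 and 0.17 ± 0.17 (± SE). No feature of this list had an unadjusted p under 0.05 with training in either genotype. For kinase dead minus wild type in sedentary mice, 8 of the 10 were above 0. That comparison uses the same kinase dead sedentary libraries, so the signs are not shown to be a response to training.

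The third list held 12 miRNAs that act on the LDL receptor or ABCA1, as miR-148a does. Of its 14 features, 13 were tested, and 0 rose or fell in any comparison, while miR-301b-3p, with a mean of 0.227 CPM, was below the filter. The median log2 change with training was −0.06 in kinase dead and −0.04 in wild type mice, beside the same −0.02 and −0.01 over all features. miR-33-5p, which lies within the sterol regulator gene Srebf2 and represses ABCA1, was at −0.08 ± 0.44 in kinase dead and 0.12 ± 0.44 in wild type mice. miR-27b-3p was at −0.01 ± 0.11 and 0.15 ± 0.11 (± SE). Their mean levels were 26.9 CPM for miR-33-5p and 12550.1 CPM for miR-27b-3p.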

How the data were processed

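Small RNA was sequenced from subcutaneous fat of female mice. TRIzol was used for the RNA and an NEBNext small RNA kit for the libraries, per the labels' protocols. Per the submitters' processing notes, the tools were CASAVA 1.8.2, Trim Galore, Bowtie2 and featureCounts, with build mm10; the sources used here give no other version, no annotation release and no setting for mismatches, multiple mapping or strand. The values deposited by the authors are raw read counts of each mature miRNA locus in 1 column per library, not normalized. No column was left without a sample.

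Members were found by identifier. The members and lists were chosen with earlier results of these data known, as was the division of libraries at 2000 CPM of miR-150-5p. Of 2045 loci, 1670 were named from RefSeq and 375 from GENCODE hairpins on GRCm38, and 344 had 0 reads in every library. Hairpins matched by coordinates gave the genomic place.

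Counts were fitted with the quasi-likelihood method of edgeR 4.0.16 in R 4.3.3, with TMM factors and filterByExpr, in 1 fit of the 4 groups (24 libraries). It kept 654 features; the 1391 below the filter held 0.0166% of reads. P-values were adjusted by Benjamini-Hochberg over the 654, with a threshold of 0.05. Fold changes are on the log2 scale, tested on simulated data beforehand. Member ratios were compared with exact permutation tests (scipy 1.17.1), and correlations with 100000 resamples, or exactly for 7 libraries. Shares, arms and list counts are descriptions. Named were the members, their 5p arms, miRNAs with the same seed, list members, and the 4 features most like each member. Alternatives were other scaling, no filter, DESeq2 1.42.0, fewer libraries or groups, and miR-150-5p as a covariate. At these depths 3 reads stand for 0.127 to 1.87 CPM from total counts, before TMM factors. No pair of libraries looked like repeated deposits of 1 library, since chi-square over its degrees of freedom was at least 35.5 in the 276 pairs.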

Additional observations from a re-analysis of the deposited data

Results flagged for a closer look

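In 48 groups of 6 libraries checked for a value far from the others, 4 held one, and chance gives about 1 in 20. In wild type sedentary replicate 3, miR-148a-3p was at 44097 CPM, against 31157 to 34941 CPM in the other 5 libraries of the group. In the same library the sum of the 3 members was 52937 CPM, against 38692 to 43131 CPM. The share of the 3p product of mir-148b was 97.85% in kinase dead trained replicate 3, against 98.28% to 98.49% in the rest of the group. The share of the 3p product of mir-152 was 97.98% in kinase dead sedentary replicate 5, against 98.81% to 98.99%. Kinase dead trained replicate 3 and kinase dead sedentary replicate 5 are among the 7 libraries rich in lymphocyte miRNAs.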

How the results depend on the processing

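No member passed the adjusted threshold under any alternative. The count of features called was 0 in every comparison and alternative except with miR-150-5p as a covariate, where training in wild type had 1 (miR-203-5p, log2 change 0.66, adjusted p = 0.0418, edgeR) and training averaged over genotypes had 2 (miR-203-5p at 0.46 and miR-1981-3p at 0.51, adjusted p = 0.044 each, edgeR); the cause was not tested. RLE factors and DESeq2 turned no sign of a member.

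Signs turned as follows, all on the log2 scale, and the cause was not tested. For training in wild type, miR-148b-3p was 0.0037 without a filter. There miR-152-3p was 0.036 with total counts, 0.034 without a filter, 0.041 with the covariate and 0.012 with only the 2 groups compared in the fit. For training in kinase dead, miR-148a-3p was 0.0078 with total counts. For training averaged over genotypes, miR-148b-3p was −0.00022 with the covariate. Without the 7 lymphocyte-rich libraries, miR-148b-3p was −0.032 for training in kinase dead and −0.042 averaged over genotypes. In sedentary mice the genotype difference was then 0.15 for miR-148a-3p and 0.13 for miR-148b-3p, and in trained mice 0.0096 for miR-152-3p. The difference in the log2 ratio of miR-148b-3p over miR-148a-3p was −0.012 by genotype in sedentary and −0.013 in trained mice. With CPM from total counts, an alternative chosen after seeing the data, Pearson r turned to −0.16 for miR-148a-3p with miR-152-3p and −0.028 for miR-148b-3p with miR-152-3p in the 17 libraries, and to −0.069 and −0.32 in the 7.

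Leaving out 1 library at a time, the ranges that crossed 0 were these. Training in wild type gave −0.15 to 0.0076 for miR-148a-3p, −0.15 to 0.078 for miR-148b-3p and −0.12 to 0.090 for miR-152-3p. Training in kinase dead gave −0.18 to 0.053 for miR-148a-3p and −0.043 to 0.14 for miR-148b-3p, and averaged over genotypes −0.062 to 0.073 for miR-148b-3p. The interaction gave −0.080 to 0.15 for miR-148a-3p and −0.016 to 0.20 for miR-148b-3p. Genotype in sedentary mice gave −0.11 to 0.081 for miR-148a-3p, −0.12 to 0.065 for miR-148b-3p and −0.051 to 0.23 for miR-152-3p. Genotype in trained mice gave −0.080 to 0.089 for miR-148a-3p and −0.050 to 0.11 for miR-148b-3p. The log2 ratio of miR-148b-3p over miR-148a-3p gave −0.039 to 0.11 by genotype in sedentary and −0.017 to 0.084 in trained mice. That of miR-152-3p over miR-148a-3p gave −0.17 to 0.032 for training in kinase dead, −0.0062 to 0.19 by genotype in sedentary and −0.17 to 0.0060 in trained mice. The lowest adjusted p of a member's level in these fits was 0.801 (edgeR).

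No paired analysis was possible because the labels give no replicate numbers that groups share. The members had 2373 reads or more in every library. How much of the width of their intervals came from depth and how much from the spread between libraries was not tested. miR-148b-5p had as few as 43 reads, and the part of depth in its spread was not tested either.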
